A study of Mus musculus with 10 samples.

Results

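The Reg (regenerating) family of mouse comprises small secreted proteins that share a C-type lectin fold. The 7 genes described here, Reg1, Reg2, Reg3a, Reg3b, Reg3d, Reg3g and Reg4, were taken by symbol through their Ensembl identifiers from a table of 52178 genes. Their RNA was measured in pancreatic islets of male C57Bl/6 mice, all retired breeders, with 5 sedentary libraries (sedentary 1 to 5) and 5 exercise libraries (exercise 6 to 10). The exercise group ran on a treadmill at 17 cm/s and 5 degrees of slope for 1 h a day, 5 times a week for 2 weeks, after 3 days of acclimatization. Islets of both groups were released with collagenase, picked by hand and placed in medium with 11 mM glucose. The labels do not tie a library to an animal, and each p-value therefore rests on differences among libraries that could be technical in part. Libraries held between 15081922 and 23222704 counts. Levels are given as CPM (counts per 1000000), scaled to library size with trimmed-mean (TMM) factors, and group values are means ± SD with n = 5.

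Reg1, also called lithostathine or pancreatic stone protein, is an abundant product of the acinar cells, the enzyme-secreting cells of the exocrine pancreas. Reg2 is its close relative, and Reg3b was first known as pancreatitis-associated protein because acinar cells make much of it when injured. Reg3b and Reg3g are also made by intestinal epithelium, where they act against bacteria, and both are raised by interleukin-22 (IL-22) and interleukin-6 (IL-6) through the transcription factor STAT3. Reg3d is related to the islet neogenesis-associated protein of hamster, and Reg4 is made mainly by secretory cells of the gut. The family is of interest in islets because Reg proteins have been studied as growth and survival factors of beta cells.

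Libraries differed in how much RNA of other tissues they held, and these values stand beside the Reg results below. The islet hormone cell list (14 genes, insulin among them) summed to between 9120 and 222434 CPM in sedentary and between 150845 and 207473 CPM in exercise libraries. Its lowest values were 9120 CPM in sedentary 1 and 42107 CPM in sedentary 2. The acinar list (32 genes, no Reg gene) summed to 83275 to 176246 CPM in sedentary and 186063 to 498876 CPM in exercise libraries. The enterocyte list, 24 genes of the absorptive cells of the small intestine, summed to 17429 and 24497 CPM in sedentary 1 and 2, to between 3638 and 4970 CPM in sedentary 3 to 5, and to between 343 and 941 CPM in exercise libraries. Bulk RNA cannot tell fewer cells of a type from less RNA per cell.

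In exercise libraries the family was divided: Reg4 and Reg3a were lower, Reg3d was higher, and Reg1, Reg2, Reg3b and Reg3g did not pass the test. In edgeR's quasi-likelihood test of 15298 genes, with Benjamini-Hochberg adjusted p under 0.05 as the threshold, 1 of the 7 members was higher and 2 were lower. Of all genes tested 13.9% passed, 2.44% as higher and 11.4% as lower in exercise. The median log2 fold change was -0.23 over the 7 members and -0.00072 over all genes tested. The CPM values of the 2 groups did not overlap for 2 members, Reg3a and Reg4, both lower in exercise, as for 11.4% of all genes. Non-overlap in either direction was found for 17.6% of all genes, and with exercise higher for 6.24%. Without sedentary 1 and 2, the libraries poorest in islet hormone genes, the same 3 members passed in the same directions, where 12.8% of 15692 genes passed, 4.1% as higher and 8.68% as lower. DESeq2 passed 5 members, Reg2 and Reg3d as higher (7.19% of all genes) and Reg3a, Reg3g and Reg4 as lower (17.3%), out of 24.5% of genes in either direction. The more cautious limma-voom passed 0 of the 7 members and 3.37% of all genes, 1.16% as higher and 2.22% as lower. Its unadjusted p was under 0.05 for 4 members and for 5202 of the 15298 genes.

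Reg1 made up most of the family's RNA in every library. It took 85.7 to 92.5% of the Reg counts in sedentary and 83.0 to 94.1% in exercise libraries. All 7 members together took 0.166 ± 0.105% of a library's counts in sedentary and 0.108 ± 0.0297% in exercise libraries. Per kilobase of the longest annotated coding transcript, the order of levels in sedentary libraries was Reg1 (1477 ± 960 CPM per kb), Reg3b (62.4 ± 99.1), Reg3g (40.4 ± 55.9), Reg4 (37.4 ± 37.4), Reg3a (33.9 ± 37.2), Reg3d (22.2 ± 8.64) and Reg2 (6.95 ± 3.69). Of these neighbours only Reg1 and Reg3b, and Reg3d and Reg2, lay apart by more than their SDs. In exercise libraries the order was Reg1 (1262 ± 507 CPM per kb), Reg3b (88.3 ± 114), Reg3d (56.3 ± 34.0), Reg2 (27.5 ± 28.1), Reg3g (4.68 ± 4.36), Reg3a (1.96 ± 1.21) and Reg4 (1.32 ± 1.11). There only Reg1 and Reg3b lay apart by more than their SDs. By their means Reg4, Reg3a and Reg3g stood lower in the order of exercise libraries and Reg3d and Reg2 higher, though most neighbouring ranks lay within the SDs.

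**Figure D1:**
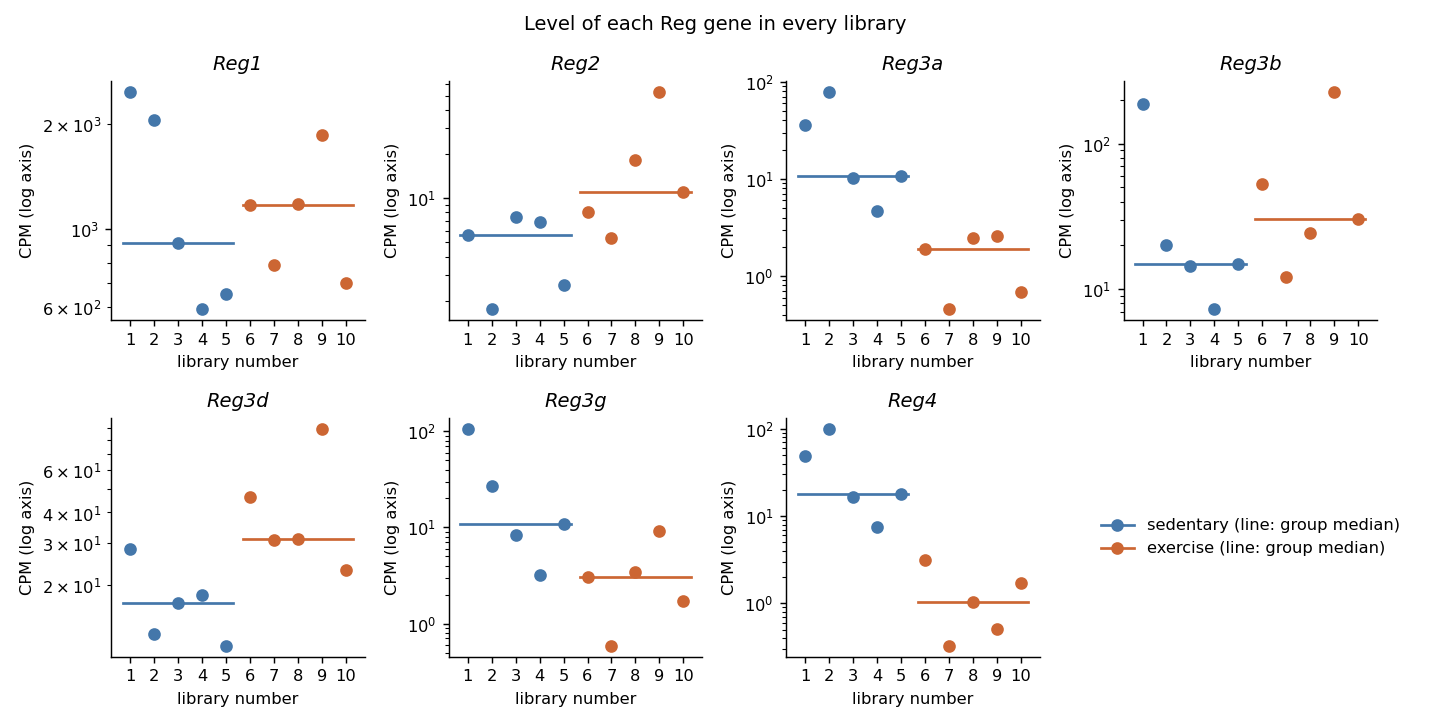
CPM (log axis) of each Reg gene in the 5 sedentary (blue) and 5 exercise (orange) libraries, numbered 1 to 10, with a line at each group's median. Reg3a and Reg4 are lower in every exercise library than in any sedentary library, while Reg3b reaches 187 CPM in sedentary 1 and 226 CPM in exercise 9.

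In RefSeq, 6 of the members lie close together on chromosome 6, in the order Reg3b, Reg3d, Reg3a, Reg2, Reg1 and Reg3g, with a pseudogene between the last pair, and Reg4 lies on chromosome 3. Reg3d and Reg3a are direct neighbours read from opposite strands, and they went in opposite directions. The 250 bases before the start of Reg3d and Reg2, whose fitted changes were upward, and of Reg3a and Reg4, which fell, are shown so that these neighbours and the outlying member can be compared (RefSeq, GRCm38.p6; all 7 members were matched by symbol). The windows are chr6:78378866-78379115 on the minus strand for Reg3d, chr6:78380459-78380708 on the plus strand for Reg3a, chr6:78404905-78405154 on the plus strand for Reg2 and chr3:98221906-98222155 on the plus strand for Reg4. Each sequence runs 5′ to 3′ toward the start of its gene. Capitals mark CACCTG, an E-box of the kind bound by the acinar factor PTF1A and related proteins, and TTCCCA or its reverse complement, a core of the sites bound by RBPJ and RBPJL, the partners of PTF1A.
Reg3d: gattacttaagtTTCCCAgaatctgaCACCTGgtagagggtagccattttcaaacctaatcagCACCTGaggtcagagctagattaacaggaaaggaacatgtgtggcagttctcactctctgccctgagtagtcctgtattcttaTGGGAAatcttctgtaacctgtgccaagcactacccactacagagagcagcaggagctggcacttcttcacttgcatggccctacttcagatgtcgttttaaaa
Reg3a: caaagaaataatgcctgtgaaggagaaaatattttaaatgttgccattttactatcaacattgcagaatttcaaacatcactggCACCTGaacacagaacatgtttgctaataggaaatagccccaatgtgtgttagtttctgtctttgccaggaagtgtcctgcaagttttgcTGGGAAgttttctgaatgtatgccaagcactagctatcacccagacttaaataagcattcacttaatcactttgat
Reg2: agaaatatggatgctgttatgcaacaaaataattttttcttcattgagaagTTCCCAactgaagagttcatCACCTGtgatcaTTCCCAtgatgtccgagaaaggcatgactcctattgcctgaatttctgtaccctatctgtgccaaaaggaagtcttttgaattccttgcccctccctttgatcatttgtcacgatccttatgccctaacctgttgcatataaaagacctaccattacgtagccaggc
Reg4: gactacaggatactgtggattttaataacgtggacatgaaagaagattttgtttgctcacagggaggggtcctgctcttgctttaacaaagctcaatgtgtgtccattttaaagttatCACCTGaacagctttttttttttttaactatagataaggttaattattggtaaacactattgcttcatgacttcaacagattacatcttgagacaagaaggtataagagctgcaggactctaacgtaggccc

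Both motifs, searched on both strands, occurred together before Reg2, Reg3a and Reg3d, that is before members that went in opposite directions, and together in 3.87% of 27025 RefSeq windows of the same length. CACCTG alone stood before Reg2, Reg3a, Reg3b, Reg3d and Reg4 (17.1% of all windows), and TTCCCA before Reg1, Reg2, Reg3a, Reg3d and Reg3g (21.5%). The STAT-type motif TTCNNNGAA stood before Reg3b and Reg3d (7.18% of all windows), and in Reg3d it overlapped a TTCCCA match. TATAAA, the TATA box, stood before Reg1, Reg2, Reg3b and Reg3g (13.0%), and TTTATG, a motif of the intestinal CDX factors, before Reg3b (11.1%). The motifs were chosen after the sequences were seen, and the matches describe letters in a window and not binding.

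Reg4 (ENSMUSG00000027876), the gut member, showed the largest fitted change of the family in the fit of all 10 libraries. It was at 48.3, 101, 16.7, 7.47 and 17.8 CPM in sedentary 1 to 5 and at 3.13, 0.325, 1.04, 0.515 and 1.71 CPM in exercise 6 to 10. Each exercise library was lower than any sedentary library, and sedentary 1 and 2 were the highest. The group values were 38.2 ± 38.2 and 1.34 ± 1.13 CPM, and edgeR put the log2 fold change at -4.81 ± 0.85 (SE) with an adjusted p of 0.00900. In counts the exercise libraries held 5 to 56 Reg4 reads each, so their differences from one another rest on few reads. Without sedentary 1 and 2 the log2 fold change was -3.32 (edgeR adjusted p = 0.00388), and without sedentary 2 alone it was -4.05.

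Reg3a (ENSMUSG00000079516), a Reg3 gene next to Reg3d, ranked the sedentary libraries in the same order as Reg4. It was at 35.7, 78.5, 10.3, 4.62 and 10.7 CPM in sedentary 1 to 5 and at 1.90, 0.456, 2.47, 2.58 and 0.683 CPM in exercise 6 to 10. The groups did not overlap, with the lowest sedentary value at 4.62 CPM in sedentary 4 and the highest exercise value at 2.58 CPM in exercise 9. On the log2 scale it changed by -4.11 ± 0.85 (SE), with an edgeR adjusted p of 0.0130. It was -2.38 without sedentary 1 and 2 (edgeR adjusted p = 0.0123) and -3.24 without sedentary 2 alone. The calls of Reg3a and Reg4 were kept when any 1 library was left out, but limma-voom passed neither (adjusted p = 0.0805 and 0.0593). With the acinar level as covariate neither passed (log2 fold change -3.91 and -4.05, edgeR adjusted p = 0.318 and 0.276). With the enterocyte level as covariate both changed sign (0.13 ± 1.38 and 0.054 ± 0.54 SE, edgeR adjusted p = 0.987 and 0.986). In either fit 0 of 15298 genes passed, so not passing there is not particular to Reg3a and Reg4. These covariates shared 0.636 and 0.799 of their variance with the group.

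Reg3g (ENSMUSG00000030017), a lectin that kills Gram-positive bacteria at the intestinal surface, had the same direction but a wider spread. It was at 107, 26.6, 8.32, 3.24 and 10.9 CPM in sedentary 1 to 5 and at 3.02, 0.586, 3.45, 9.27 and 1.71 CPM in exercise 6 to 10. Sedentary 1 stood far above the others, and exercise 8 and 9 lay above sedentary 4, so the groups overlapped. The log2 fold change of -3.11 ± 0.99 (SE) did not pass (edgeR adjusted p = 0.0621). It passed without sedentary 4 (log2 fold change -3.40, edgeR adjusted p = 0.0272) and in DESeq2 (adjusted p = 0.00388), and it was -1.03 without sedentary 1 and 2 (edgeR adjusted p = 0.341).

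The fall of Reg4 and Reg3a went with that of the gut lists. All 23 tested enterocyte genes were lower in exercise (median log2 fold change -4.43), as were all 12 tested Paneth and goblet cell genes (median -5.52) and 5 of 6 tested genes of gut hormone cells (median -4.38). The lower genes without sedentary 1 and 2 were 23 of 23 (median -3.09), 11 of 12 (median -3.999) and 5 of 6 (median -2.91), beside -3.32 for Reg4 and -2.38 for Reg3a. Cdh17, an intestinal cadherin, fell from 332 ± 318 to 12.2 ± 6.69 CPM, and Guca2b, encoding uroguanylin, from 99.8 ± 80.3 to 4.09 ± 2.85 CPM. Agr2, a disulfide isomerase of goblet cells, fell from 74.9 ± 92.9 to 1.80 ± 1.38 CPM, and Sct, encoding secretin, from 11.3 ± 9.74 to 0.490 ± 0.466 CPM. Counted against the enterocyte list, Reg4 held 2.05 to 4.11 counts per 1000 enterocyte counts in sedentary and 0.827 to 3.32 in exercise libraries. Reg3a held 1.27 to 3.21 and 0.729 to 7.51 on the same scale, and Reg3g 0.891 to 6.11 and 1.49 to 27.0. On this scale the groups overlapped for all 3, where Reg4 in CPM differed 28.0-fold in the fit. For Reg4 only exercise 6 (3.32) reached into the sedentary range, and the means were 3.20 ± 0.81 in sedentary and 1.76 ± 0.95 in exercise libraries. The means of Reg3a and Reg3g went the other way, from 2.17 ± 0.69 to 2.92 ± 2.73 and from 2.41 ± 2.14 to 7.60 ± 10.9. Exercise 9, the library with the lowest enterocyte list level, held the highest value of each (7.51 and 27.0). The medians in sedentary and exercise libraries were 2.08 and 2.02 for Reg3a, so no rise is read for it, and 1.67 and 3.21 for Reg3g. These differences were not tested. The enterocyte level shared 0.799 of its variance with the group, so the part of gut RNA in the lower Reg4 and Reg3a cannot be told apart from the group.

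Of 13389 candidate genes, those whose log2 CPM over the 10 libraries was most like that of Reg4 were Cdx2 (Pearson r = 0.998), Cdx1 (0.996) and the dipeptidase gene Dpep1 (0.996). Cdx2 and Cdx1 are transcription factors that define intestinal epithelium. For Reg3a they were Mlkl, a gene of necroptosis (r = 0.985), Agmat (0.984) and the glutathione transferase gene Mgst1 (0.982). For Reg3g they were Acot9 (r = 0.966), the glucose transporter gene Slc2a1 (0.963) and the keratin gene Krt23 (0.959). These values describe 10 shared libraries that differ in group and tissue make-up, and the best of so many genes is high by choice.

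**Figure D2:**
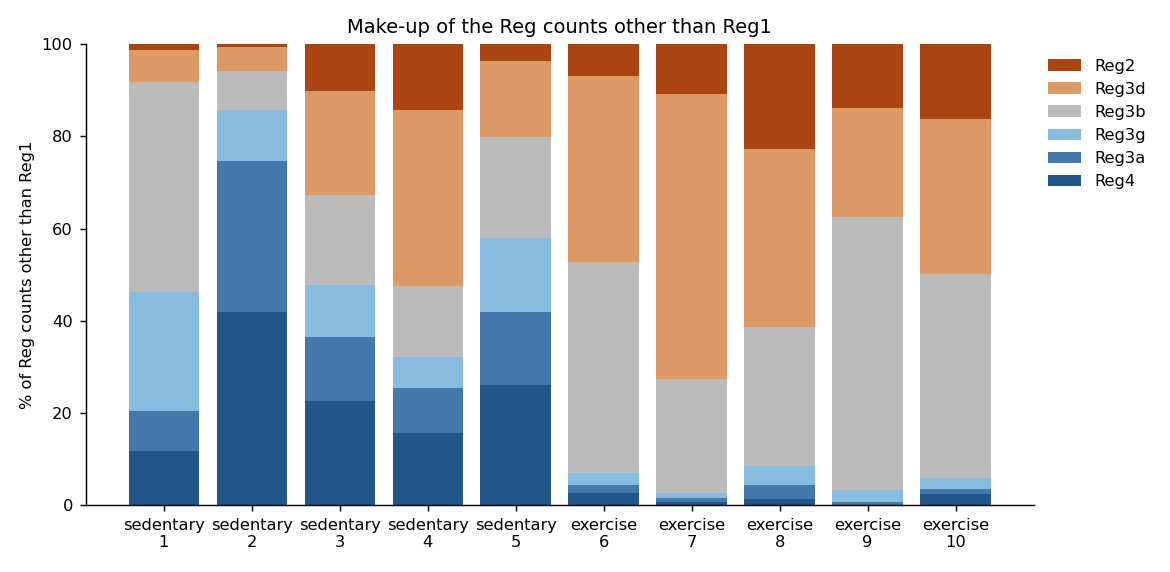
Share of each member (percent) in the Reg counts other than Reg1, by library. Reg4, Reg3a and Reg3g (blue) together fill much of the sedentary bars and little of the exercise bars, where Reg3b, Reg3d and Reg2 fill the rest: Reg4 alone takes 11.7 to 41.9% in sedentary and 0.135 to 2.72% in exercise libraries.

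Reg3d (ENSMUSG00000068341) was the member that rose. It was at 28.3, 12.6, 16.8, 18.1 and 11.2 CPM in sedentary 1 to 5 and at 46.2, 30.8, 30.95, 89.2 and 23.1 CPM in exercise 6 to 10. All exercise libraries but exercise 10 were above every sedentary library, and exercise 9 was the highest. The group values were 17.4 ± 6.76 and 44.1 ± 26.6 CPM, and edgeR put the log2 fold change at 1.34 ± 0.39 (SE) with an adjusted p of 0.0457. The call was close to the threshold: it was lost without sedentary 2, 3, 4 or 5 or without exercise 6, 7, 8 or 9 (edgeR adjusted p up to 0.0939, without sedentary 2; log2 fold change 0.97 without exercise 9) and in limma-voom (adjusted p = 0.0729).

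Reg3d kept a steady proportion to the acinar genes. It held 161, 151, 137, 134 and 123 counts per 1000000 acinar-list counts in sedentary 1 to 5 and 144, 132, 143, 179 and 124 in exercise 6 to 10, or 141 ± 14.7 and 144 ± 20.9. The groups overlapped on this scale and their means lay within 1 SD of each other. With the acinar counts as library size in the fit of all genes, Reg3d differed by 0.03 ± 0.36 (SE) in log2 terms, with an edgeR adjusted p of 0.936. On this scale the median log2 fold change of all genes was -1.20, and 61.2% of genes passed as lower. Reg3d was thus level with the acinar genes and above the median gene. The genes most like it over the 10 libraries were Pnliprp2, a pancreatic lipase-related gene (r = 0.991), and the amylase copies Amy2a3 and Amy2a2 (0.990 each, with equal values). Of the 32 acinar genes, 15 were higher in exercise, 0 were lower and 17 did not pass, with a median log2 fold change of 1.25. Klk1, a kallikrein, rose from 831 ± 213 to 2680 ± 1143 CPM, and Ptf1a, the acinar transcription factor, from 5.63 ± 2.66 to 23.7 ± 12.5 CPM. With the acinar level as covariate, which shared 0.636 of its variance with the group, the log2 fold change of Reg3d changed sign (-0.23, edgeR adjusted p = 0.627). In that fit 0 of 15298 genes passed.

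Reg2 (ENSMUSG00000023140), the close relative of Reg1, had the lowest mean level per kilobase in sedentary libraries, though in sedentary 4 its 6.87 CPM stood above the CPM of Reg3a and Reg3g. It was at 5.62, 1.75, 7.49, 6.87 and 2.55 CPM in sedentary 1 to 5 and at 8.10, 5.34, 18.4, 53.2 and 11.1 CPM in exercise 6 to 10. All exercise libraries but exercise 7 were above every sedentary library, and exercise 9 stood far above the rest. The log2 fold change of 1.98 ± 0.65 (SE) did not pass (edgeR adjusted p = 0.0679), was 1.19 without exercise 9 (edgeR adjusted p = 0.156) and passed in DESeq2 (adjusted p = 0.0124). Per 1000000 acinar counts Reg2 was 38.6 ± 16.7 in sedentary and 59.8 ± 36.6 in exercise libraries, with overlap. The ratio of Reg2 to Reg1 within a library was higher in exercise by 1.74 on the log2 scale and did not pass an exact two-sided permutation test (p = 0.0476, or 0.0794 when adjusted over 5 ratios). This difference was 0.80 without sedentary 1 and 2 (exact permutation test, adjusted p = 0.268). The most similar genes over the libraries were Fbxw7, a subunit of a ubiquitin ligase (r = 0.945), the deubiquitinase gene Otud1 (0.929) and Gtf2a1 (0.927).

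Reg1 (ENSMUSG00000059654) showed no difference between the groups in CPM beyond its spread. It was at 2471, 2054, 910, 589 and 652 CPM in sedentary 1 to 5 and at 1172, 791, 1179, 1863 and 701 CPM in exercise 6 to 10. Sedentary 1 and 2 were the highest of all 10 libraries and sedentary 4 and 5 the lowest. Only sedentary 3 lay within the exercise range, so the sedentary values spread to both sides of it. In log2 terms the change was -0.23 ± 0.45 (SE), with an edgeR adjusted p of 0.728. It changed sign without sedentary 1 (0.12) and without sedentary 1 and 2 (0.69, edgeR adjusted p = 0.179), so no direction is given for Reg1 in CPM.

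The proportion of Reg1 to the acinar genes varied more widely than that of Reg3d. It held 14019, 24669, 7416, 4356 and 7208 counts per 1000000 acinar counts in sedentary 1 to 5 and 3659, 3389, 5437, 3734 and 3767 in exercise 6 to 10. Only sedentary 4 reached into the exercise range, and sedentary 1 and 2 were the highest. With the acinar counts as library size Reg1 changed by -1.53 ± 0.41 (SE) in log2 terms, with an edgeR adjusted p of 0.00446, on a scale where 61.3% of all genes passed, 61.2% as lower and 0.124% as higher. On that scale 4 members were lower, Reg1, Reg3a, Reg3g and Reg4, and 0 higher by edgeR. Without sedentary 1 and 2 the value was -0.66 ± 0.32 (SE), with an edgeR adjusted p of 0.0449, where 80.5% of genes passed, 80.4% as lower and 0.172% as higher, and the same 4 members were lower. The median log2 fold change of all genes was -1.20 on both scales, so Reg1 lay below it with all libraries and above it without sedentary 1 and 2. The genes most like Reg1 over the libraries were Kcmf1 (r = 0.948), the acetyl-CoA carboxylase gene Acacb (0.942) and Hibch (0.930).

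Reg3b (ENSMUSG00000071356), the pancreatitis-associated protein, was set apart by single libraries in both groups. It was at 187, 20.1, 14.5, 7.30 and 14.9 CPM in sedentary 1 to 5 and at 52.8, 12.2, 24.2, 226 and 30.3 CPM in exercise 6 to 10. Sedentary 1 and exercise 9 stood far above the others, and the other 8 libraries lay between 7.30 and 52.8 CPM. In log2 terms the change was 0.50 ± 1.02 (SE), with an edgeR adjusted p of 0.733. It was -0.64 without exercise 9 and 2.28 without sedentary 1, neither passing (edgeR adjusted p = 0.633 and 0.111), and 2.52 without sedentary 1 and 2 (edgeR adjusted p = 0.106). The most similar genes were Lrrc75b (r = 0.916), the lysophospholipase gene Pnpla7 (0.903) and Birc3, an inhibitor of apoptosis (0.901).

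**Figure D3:**
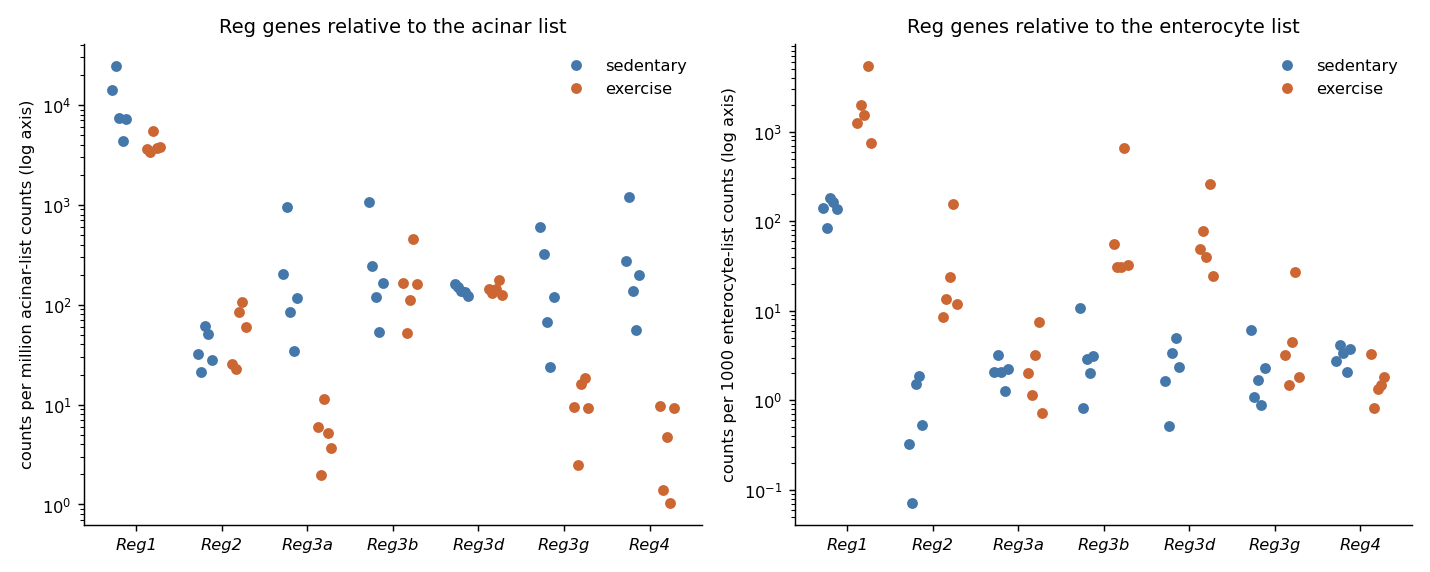
Counts of each Reg gene per 1000000 acinar-list counts (left) and per 1000 enterocyte-list counts (right), log axes, 1 point per library, sedentary in blue and exercise in orange. Reg3d lies between 123 and 179 per 1000000 acinar counts in all 10 libraries, and Reg4 lies between 0.827 and 4.11 per 1000 enterocyte counts.

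Ratios between members within a library do not depend on how libraries are scaled, and 5 were compared. The ratio of Reg3g to Reg3b, the antibacterial pair of the gut, was -0.56 ± 0.59 on the log2 scale in sedentary and -3.93 ± 0.68 in exercise libraries. Every exercise library was lower than any sedentary library, a difference of -3.37 with p = 0.00794 by exact two-sided permutation, which is the floor for 5 against 5 libraries, and 0.0198 after adjustment. The ratio of Reg3a to Reg3b was -0.41 ± 1.55 in sedentary and -4.81 ± 1.15 in exercise libraries, again without overlap, a difference of -4.40 (exact permutation test, p = 0.00794, adjusted p = 0.0198). The ratio of Reg3d to Reg3b differed by 0.41 (exact permutation test, adjusted p = 0.611) and that of Reg3b to Reg1 by 0.89 (exact permutation test, adjusted p = 0.347). Within the Reg3 group, then, Reg3a and Reg3g differed between the conditions unequally to Reg3b, and for Reg3d this was not shown. Reg3b is the denominator of each passing ratio. A ratio does not remove differences in tissue make-up between libraries, and the part of these in the ratios was not tested. Both passing ratios kept their call when any 1 library was left out, and without sedentary 1 and 2. With group medians in place of means they differed by -3.28 and -4.23 (exact permutation test, p = 0.0476, adjusted p = 0.0794 for each). That p is the smallest that medians of 5 against 5 libraries can give. After adjustment it passes only if all 5 ratios reach it, so the comparison of medians cannot decide whether these calls hold.

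**Figure D4:**
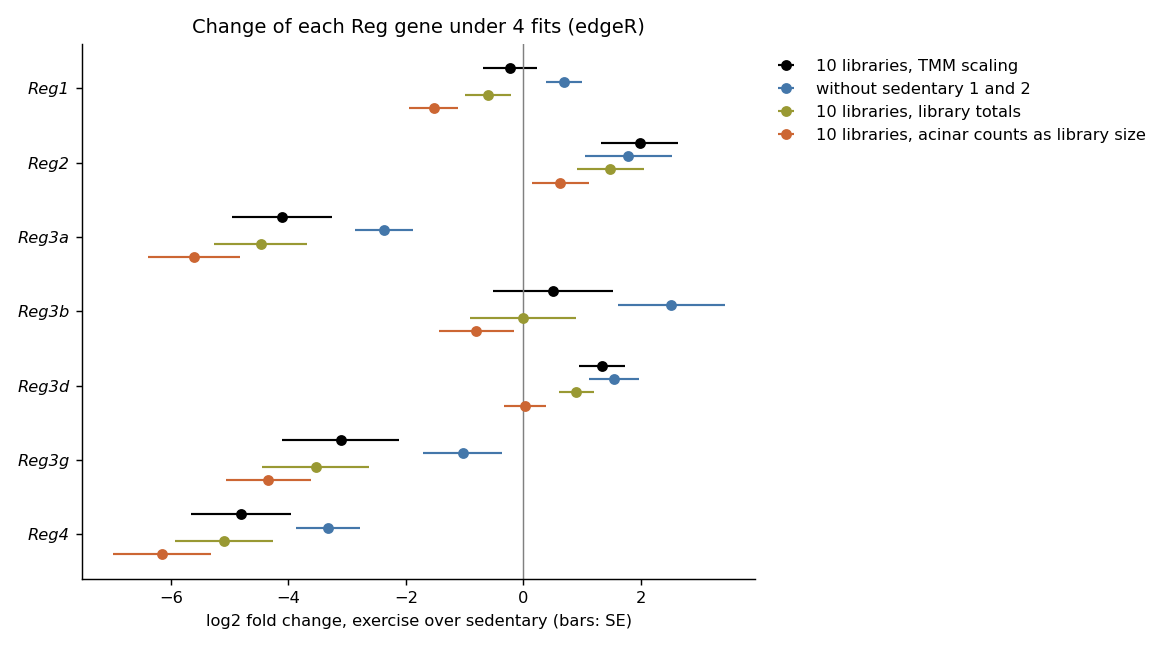
Log2 fold change of each Reg gene, exercise over sedentary, with its SE, in 4 edgeR fits. Reg4, Reg3a and Reg3g lie below 0 and Reg2 and Reg3d above 0 in all 4, Reg3d only barely so with acinar counts as library size (0.03), and Reg1 and Reg3b change sign between fits.

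Read sharing among the members was small by these annotations. The open reading frames of Reg1 and Reg2 were 78.7% identical, those of Reg3b and Reg3g 75.9%, and those of Reg4 with the other members at most 54.7%. Of the windows of 31 bases in the annotated Reg3b and Reg3g transcripts, 5 occurred in both genes, and Reg3a, Reg3d and Reg4 shared no such window with another gene. Of 70 deposited member values 69 were whole numbers (tolerance 1e-06), the exception being Reg1 in exercise 8, whose annotated transcripts share 51 of 895 windows with genes outside the family. Reg2 shared 151 of 915 windows with genes outside the family, so its counts are the least certain on this measure. Its deposited values were nonetheless all whole numbers.

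The cytokines that raise Reg3 genes were scarce, and their receptors were present. Over all 10 libraries Il22 had 2 counts, Il17a 1 and Il6 9, and these were too low to be tested. Of 20 tested genes of the 27 on the list of inducers, receptors and signal proteins, 2 were higher, 3 lower and 15 did not pass (median log2 fold change 0.18). Lifr, the receptor of leukemia inhibitory factor, rose from 43.2 ± 20.8 to 105 ± 17.97 CPM, by 1.28 ± 0.33 (SE) in log2 terms with an edgeR adjusted p of 0.0290. Il17rc fell from 23.6 ± 15.6 to 8.22 ± 1.66 CPM and Il10rb, a shared subunit of the IL-22 and IL-10 receptors, from 34.8 ± 16.6 to 16.4 ± 2.45 CPM, and the latter did not pass without sedentary 1 and 2 (edgeR adjusted p = 0.0617). Lif itself, at 1.45 ± 1.00 and 0.426 ± 0.103 CPM, also fell and did not pass without those libraries (edgeR adjusted p = 0.189). Extl3, a proposed Reg receptor that was picked after its value was seen, rose from 47.5 ± 11.2 to 71.7 ± 8.17 CPM, by 0.59 in log2 terms with an edgeR adjusted p of 0.0461. Of 22 genes of the list tested without sedentary 1 and 2, 5 were higher and 1 lower. With scaling to library totals 0 genes of this list were higher and 7 lower, a scale on which the median of all genes was -0.34 on the log2 scale (edgeR).

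Of 22 listed genes that IL-22 or IL-6 raise through STAT3, 11 had enough counts to be tested. Among these 11, 0 were higher and 0 lower by edgeR (median log2 fold change 0.43). At an unadjusted p under 0.05, 1 was higher, where 5105 of all 15298 genes reached that p in either direction. DESeq2 passed 1 as higher. In edgeR 1 of the 11 was higher without sedentary 1 and 2, and 1 was lower with scaling to library totals. Socs3, the feedback inhibitor of STAT3, picked after its value was seen, had 8.53 ± 5.42 and 24.1 ± 13.9 CPM (edgeR adjusted p = 0.0655). The most abundant of these genes, Mcl1, had 110 ± 36.5 and 92.7 ± 23.7 CPM. Of 9 tested genes known to rise in injured acinar cells, 1 was higher and 2 lower (median log2 fold change 0.12). Nupr1, a stress-induced chromatin protein, rose from 245 ± 53.2 to 889 ± 307 CPM, by 1.86 ± 0.26 (SE) in log2 terms with an edgeR adjusted p of 0.00900, while Krt8 and Anxa2, which gut and duct epithelium also express, fell from 591 ± 519 to 131 ± 32.8 and from 153 ± 118 to 29.4 ± 11.5 CPM.

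The other cell type lists moved less uniformly. Of 4 tested stomach genes 1 was lower, Pgc, encoding pepsinogen C, at 2842 CPM in sedentary 1, the library with the highest Reg3g and the highest Reg1, and at most 1.84 CPM in exercise libraries (log2 fold change -10.10, and -3.85 without sedentary 1 and 2). Of 9 tested duct genes 3 were lower, among them Cftr, a chloride channel also of the gut, which fell from 39.9 ± 46.9 to 2.01 ± 1.76 CPM. Of 11 tested macrophage genes 2 were higher: Cd14, which senses bacterial products, from 3.12 ± 0.900 to 13.4 ± 10.2 CPM, and Cd163 from 3.05 ± 2.25 to 16.6 ± 7.99 CPM. Cd14 did not pass without sedentary 1 and 2 (edgeR adjusted p = 0.0516). None of the 14 islet hormone cell genes passed in edgeR (0 higher, 0 lower) or DESeq2, and 1 was higher in edgeR without sedentary 1 and 2. At an unadjusted p under 0.05 in edgeR 1 was higher, beside 5105 of all 15298 genes in either direction. Ins2 was at 71445 ± 54131 and 107499 ± 15668 CPM. The log2 fold change of Ins2 was 0.59 with all libraries and 4.6e-05 without sedentary 1 and 2, and it passed in neither fit.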

How the data were processed

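Islet RNA from 10 libraries, 5 per group, was measured after column extraction and stranded mRNA library preparation, per the labels' protocols. The authors deposited estimated counts for each Ensembl gene, in 1 table, and fastp and kallisto are named, without versions, in the submitters' processing notes. The build and the annotation: not given in the sources used here. Among all values, 12.6% were not whole (tolerance 1e-06), and estimated counts were rounded before testing. All genes were fitted in R 4.3.3 with edgeR 4.0.16 (filter at minimum count 10 and minimum total 15, 15298 genes; TMM factors 0.669 to 1.20; prior count 2 for log2 CPM). Alternatives used DESeq2 1.42.0 and limma 3.58.1. Ratios of members were compared by exact two-sided permutation over libraries. The fit was checked on simulated data.

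Groups came from the labels. The members, gene lists (islet hormone cell, acinar, enterocyte, Paneth and goblet, gut hormone cell, stomach, duct, macrophage, inducers and receptors, STAT3-responsive, acinar injury) and alternatives were chosen with earlier results of these data known. Named genes were the members, at most 4 passing genes of smallest p of each list or else its 3 most abundant, and the 3 genes of highest Pearson correlation with each member among 13389 genes whose mean CPM reached 1 and whose symbol was not a predicted or clone-based name. Genes outside this rule are marked as such where they appear. The genes listed as Cblif and Il11ra were read as Gif and Il11ra1, and Muc6 was not used. Transcript lengths, reading frames and shared windows came from GENCODE M21 (Biopython 1.88 alignment), and upstream bases from RefSeq. Levels per kilobase assume the longest coding transcript.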

Additional observations from a re-analysis of the deposited data

Results flagged for a closer look

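In groups of 5 libraries, a library was singled out where its gap to the nearest other library exceeded 0.71 of the group's range (Dixon's 95% critical value). Of 24 groups of values looked at, 12 measures in each condition, 4 held such a library. Chance gives about 1 in 20 only where values are normally distributed. All 4 were found in CPM off the log scale, where values are skewed, so their number cannot be set against that rate. Reg3b stood at 187 CPM in sedentary 1, where the next sedentary library had 20.1 CPM, and at 226 CPM in exercise 9, where the next had 52.8 CPM. Reg3g stood at 107 CPM in sedentary 1, with 26.6 CPM next. Reg2 stood at 53.2 CPM in exercise 9, with 18.4 CPM next. Exercise 9 also had the highest acinar list level, 498876 CPM, and sedentary 1 the highest stomach list level, 5803 CPM. The part of these tissues in the 4 values was not tested.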

How the results depend on the processing

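No paired analysis was possible because the labels number the libraries 1 to 10 across both groups, so the groups share no replicate number. Size factors of DESeq2 within edgeR (RLE), upper-quartile factors, a minimum count of 50, no filter on low counts and robust fitting kept the 3 calls of Reg3a, Reg3d and Reg4. All genes: against 374 higher and 1745 lower genes, DESeq2 gave 1097 and 2642, limma-voom 177 and 339, library totals alone 159 and 4408, acinar counts as library size 19 and 9359 (27 and 12609 without sedentary 1 and 2, a setting chosen after seeing the data), and leaving out sedentary 1 and 2 gave 644 higher. DESeq2 passed Reg2 (log2 fold change 1.97) and Reg3g (-3.13). In limma-voom Reg3a (-3.61), Reg3d (1.25) and Reg4 (-4.56) no longer passed. With library totals alone Reg3g passed (-3.53) and Reg3b changed sign (-0.0093). With acinar counts as library size Reg1 (-1.53) and Reg3g (-4.34) passed, Reg3d (0.033) did not, and Reg3b changed sign (-0.80). Without sedentary 1 and 2 as well, Reg1 (-0.66) and Reg3g (-2.65) passed and Reg3d (0.14) did not. Without sedentary 1 and 2 alone Reg1 changed sign (0.69), as did the ratio of Reg3d to Reg3b (-0.41). Differences of group medians put the ratios of Reg3g and Reg3a to Reg3b at -3.28 and -4.23 (exact permutation test, adjusted p = 0.0794). Both were at the smallest p that medians of 5 against 5 libraries can give, so this setting cannot decide the calls. With the acinar level as covariate, which shared 0.636 of its variance with the group, edgeR called 0 genes higher and 0 lower (1793 at an unadjusted p under 0.05). Reg3a (-3.91) and Reg4 (-4.05) no longer passed there, and Reg3b (-2.38) and Reg3d (-0.23) changed sign. With the enterocyte level as covariate, which shared 0.799, edgeR called 0 higher and 0 lower (280 unadjusted). Reg3d (0.84) no longer passed there, and Reg1 (1.46), Reg2 (-0.22), Reg3a (0.13), Reg3g (0.37) and Reg4 (0.054) changed sign, and in this fit group and enterocyte level cannot be told apart. Leaving out 1 library in turn gave 132 to 889 higher and 800 to 2721 lower genes. Log2 fold changes ran from -0.41 to 0.12 for Reg1, 1.19 to 2.22 for Reg2, -4.38 to -3.24 for Reg3a, -0.64 to 2.28 for Reg3b, 0.97 to 1.58 for Reg3d, -3.75 to -1.77 for Reg3g and -5.37 to -4.05 for Reg4. Ratio differences ran from 1.21 to 2.14 for Reg2 to Reg1, -3.66 to -3.13 for Reg3g to Reg3b, -4.90 to -3.81 for Reg3a to Reg3b, -0.15 to 0.85 for Reg3d to Reg3b and 0.47 to 1.37 for Reg3b to Reg1. Depth limits Reg4 and Reg3a in exercise libraries, at 5 to 56 and 7 to 43 counts each.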
